A study of Mus musculus with 6 samples.

Results

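The 33 genes described here encode proteins that copy DNA: the replicative helicase and its loaders, the sliding clamp and clamp loader, the DNA polymerases and primase, the enzymes that join Okazaki fragments, and the enzymes that supply deoxynucleotides. They were taken from the array by gene name, including the older names Cdc45l and Orc1l. All 33 were on the array, among 18228 gene names that passed a filter on dim probes. Expression was measured on 6 Agilent single-colour arrays of mouse fetal liver erythroid progenitors taken at E14.5, the cells that go on to make red blood cells. In 3 samples a retrovirus delivered a short hairpin RNA against Exosc8 (shExosc8), a structural subunit of the RNA exosome, a complex that shortens RNA molecules starting at their 3′ ends. In the other 3 the hairpin was directed against luciferase, which mouse cells lack (shControl). Cells of both groups were isolated with a selection kit, infected on isolation and grown for 3 days with erythropoietin, dexamethasone and kit ligand before RNA extraction. Labels give neither a strain nor a selection for infected cells, and no label ties the replicates to separate embryos or cultures. The p-values therefore reflect how far these arrays spread, part or all of which may be technical.

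Replication begins when the origin recognition complex, Cdc6 and Cdt1 load the Mcm2 to Mcm7 ring onto DNA in G1. Cdc45 and the GINS complex then turn the ring into an active helicase in S phase, polymerase alpha-primase lays down primers, and the clamp loader places PCNA so that polymerases delta and epsilon can extend them. Many of these genes are transcribed in bursts at the G1 to S transition under E2F factors. Erythroid progenitors divide rapidly, and their cell cycle is remodelled as they mature and finally stop dividing.

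The promoters of 4 of the genes are printed because they show the words that many replication genes share with each other and how unevenly those words fall among the genes that changed. Cdc6, Mcm2 and Rrm2 are the genes past the threshold in the comparison below for which a window was at hand, and Mcm6, which did not pass it, held more E2F words than any other window of these genes. Each runs 5′ to 3′ on the strand of the gene, from 250 bases before to 50 bases after the annotated start, and is taken from RefSeq on GRCm38.p6. Capitals mark the E2F words TTTGGCGC, TTTGCCGC, TTTCGCGC and TTTCCCGC and the CCAAT box, each on either strand. The Cdc6 window lies at chr11:98907901-98908200 on the plus strand, the Mcm2 window at chr6:88898731-88899030 on the minus strand, the Mcm6 window at chr1:128359656-128359955 on the minus strand and the Rrm2 window at chr12:24708004-24708303 on the plus strand.
Cdc6: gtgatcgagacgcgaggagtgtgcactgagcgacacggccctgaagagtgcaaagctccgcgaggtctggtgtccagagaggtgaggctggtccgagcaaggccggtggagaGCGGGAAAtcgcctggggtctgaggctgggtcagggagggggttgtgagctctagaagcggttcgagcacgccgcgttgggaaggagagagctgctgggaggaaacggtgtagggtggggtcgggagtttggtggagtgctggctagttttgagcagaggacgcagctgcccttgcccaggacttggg
Mcm2: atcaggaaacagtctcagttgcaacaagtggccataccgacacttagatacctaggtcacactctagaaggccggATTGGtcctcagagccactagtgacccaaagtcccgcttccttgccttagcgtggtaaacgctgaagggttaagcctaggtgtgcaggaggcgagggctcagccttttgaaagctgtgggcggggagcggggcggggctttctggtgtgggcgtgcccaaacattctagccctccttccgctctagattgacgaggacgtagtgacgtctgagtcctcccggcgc
Mcm6: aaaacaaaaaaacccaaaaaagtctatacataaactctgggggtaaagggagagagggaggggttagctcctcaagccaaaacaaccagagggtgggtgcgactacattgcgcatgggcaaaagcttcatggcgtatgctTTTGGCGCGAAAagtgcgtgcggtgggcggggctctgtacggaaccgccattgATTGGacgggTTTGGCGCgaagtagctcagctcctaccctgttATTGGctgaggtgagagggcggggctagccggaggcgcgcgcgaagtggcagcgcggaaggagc
Rrm2: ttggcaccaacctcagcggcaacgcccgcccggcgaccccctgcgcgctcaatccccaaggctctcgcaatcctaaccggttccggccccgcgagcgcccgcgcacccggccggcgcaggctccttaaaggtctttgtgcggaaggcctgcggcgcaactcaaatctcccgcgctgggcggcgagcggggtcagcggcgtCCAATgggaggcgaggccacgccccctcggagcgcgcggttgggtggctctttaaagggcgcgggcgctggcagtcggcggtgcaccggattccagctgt

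The Cdc6 window held 1 E2F word and no CCAAT box, and the Mcm2 and Rrm2 windows each held 1 CCAAT box and no E2F word. In the Mcm6 window there were 3 E2F words, a pair of which overlapped on opposite strands, and 2 CCAAT boxes. RefSeq windows were matched by symbol for 26 of the 33 genes, 30 windows in all because Mcm7, Fen1 and Lig1 had several. The genes without a matched window were Mcm4, Gins1, Gins2, Gins4, Ccna2, Rfc2 and Pole. An E2F word occurred in 12 of the 30 windows, 40.0%, against 2.26% of all 32851 windows of the same length. The CCAAT box, the word bound by NF-Y, occurred in 60.0% of them against 37.4% of all windows, and the GC box GGGCGG in 66.7% against 35.7%. The CHR words TTTGAA and TTCGAA, found in promoters of mitotic genes, occurred in 20.0% of the windows of replication genes and 19.2% of all windows. Of the 18 E2F words in these windows, 4 overlapped another E2F word and 1 overlapped a CCAAT box. These matches describe letters in the windows and say nothing of binding in these cells.

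**Figure D1:**
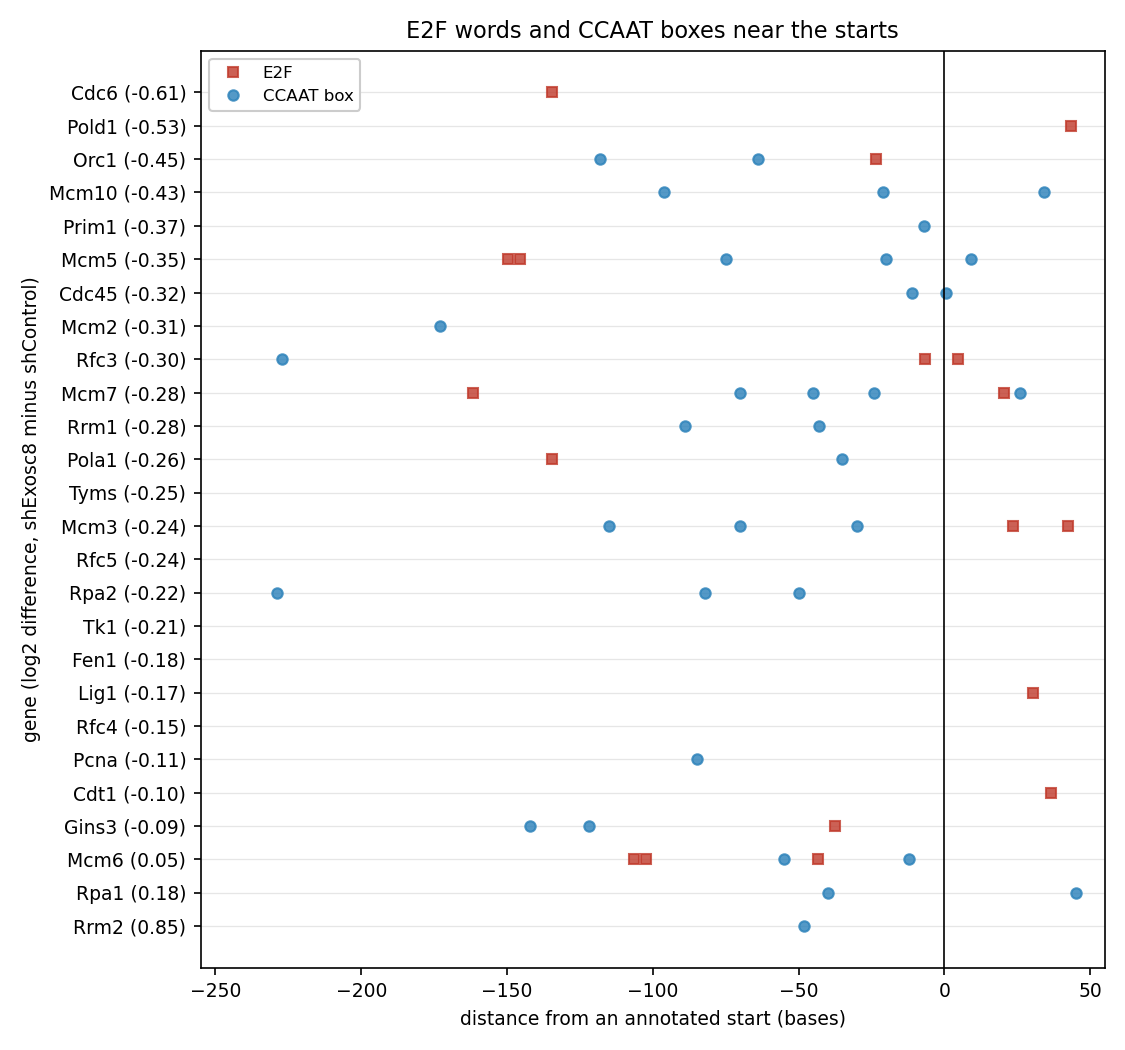
Distance in bases from each gene's annotated start (x axis) of the E2F words and CCAAT boxes found in the promoter windows of the 26 replication genes that had one, a line per gene, with several windows of a gene drawn on its line. E2F words occurred in the windows of 12 genes, and 3 of the 18 lie in the Mcm6 window.

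The knockdown itself was visible on the arrays. The Exosc8 probe read 40.4%, 40.0% and 57.4% of the shControl mean on the shExosc8 arrays, against 98.5%, 97.8% and 103.8% on the shControl arrays. Here and below, each array's signal was divided by its 75th percentile and is given as a percent of the geometric mean of the 3 shControl arrays. The groups were apart by a log2 difference of -1.14 ± 0.16 (moderated SE, n = 3 each, limma adjusted p = 0.00554). The third shExosc8 array had the weakest knockdown. The threshold, an adjusted p of 0.05, was passed by 5439 of all names tested (29.8%), with 2923 higher (16.0%) and 2516 lower (13.8%) in shExosc8. Erythroid markers were present in both groups, with 4 of 11 tested, Alas2, Epb42 and Slc4a1 among them, higher in shExosc8 and Epor lower. Markers of other cells moved too: all 12 megakaryocyte and all 12 neutrophil and monocyte genes were higher in shExosc8, as were 7 of 9 macrophage, 4 of 6 mast cell and basophil, 4 of 7 hepatocyte and 1 of 6 lymphoid genes tested, while Kit of the mast cell list was lower. Summed linear signals, relative to the 75th percentile, were 65.2 to 92.6 in shExosc8 and 7.08 to 10.3 in shControl for the megakaryocyte list, 48.1 to 62.7 in shExosc8 and 13.2 to 16.2 in shControl for the neutrophil and monocyte list, and 288 to 441 in shExosc8 and 206 to 251 in shControl for the erythroid list. The other sums were 3.07 to 3.48 in shExosc8 and 0.894 to 1.11 in shControl for macrophages, 4.27 to 5.22 in shExosc8 and 2.69 to 4.21 in shControl for mast cells, 0.732 to 0.918 in shExosc8 and 0.459 to 0.538 in shControl for hepatocytes, and 0.598 to 0.622 in shExosc8 and 0.463 to 0.521 in shControl for lymphoid cells. Bright genes weigh most in such sums. Hba-a1 was the brightest erythroid gene tested, at 136% of the shControl mean in shExosc8 (limma adjusted p = 0.133). Pf4 was the brightest megakaryocyte gene, at 1043%. Kit was the brightest mast cell gene tested in shControl and fell to 44.9%. The 4 mast cell genes that rose, Cpa3, Cma1, Tpsb2 and Hdc, were at 952%, 950%, 828% and 241%, and Mcpt4, not called, at 68.0%. No array was well above background for Tpsab1, Fcer1a and Ms4a2 of the mast cell list, and no probe was named Hbb-b1. The part of these other cells in the replication values was not tested. In RNA from mixed cells, fewer cells of a kind and less RNA per cell cannot be told apart.

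Knockdown of Exosc8 went with small differences across the replication genes, mostly downward. Cdc6, Gins2, Rfc2 and Mcm2 fell to between 59.0% and 80.7% of the shControl mean, and Rrm2, the small subunit of ribonucleotide reductase, rose to 180%. These 5 genes were the members past an adjusted p of 0.05, 15.2% of the 33 against 29.8% of all names. The 4 that fell made up 12.1% of the members against 13.8% of all names, a share close to the background, and the 1 that rose made up 3.03% against 16.0%. In mean, 29 of the 33 genes (87.9%) were lower in shExosc8, against 55.1% of all names. In 18 other settings of the processing 27 to 32 were lower, where 46.5% to 80.5% of all names were. The 32 came without normalization, the setting with 80.5% of all names lower. The median log2 difference of the 33 genes was -0.26, or 83.3% of the shControl mean. The median of all names was -0.06, or 95.9%. Few differences were large: 4 of the 33 genes (12.1%) differed by more than 0.5 on the log2 scale, against 34.6% of all names, and none by more than 1, against 13.6% of all names. The groups did not overlap for 18 of the 33 genes, 54.5% against 51.6% of all names. Of these, 16 were lower on every shExosc8 array, 48.5% against 28.4% of all names. The other 2, Rrm2 and Rpa1, were higher on every shExosc8 array, a pattern seen in 23.2% of all names. These counts and medians over the genes are descriptions with no test of their own.

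The number of calls rested on single arrays, for these genes and for all names alike. Without the third shExosc8 array 11 of the replication genes passed, 10 of them lower, and 45.7% of all names did. Mcm5, Mcm10, Cdc45, Orc1, Pold1 and Pole were the added genes. Without the first shControl array none of the 33 passed in limma, against 13.1% of all names, and 4 had an unadjusted p under 0.05. The share of all names under that unadjusted threshold was not counted in that fit, so the 4 stand without a background. Leaving out shExosc8 array 1 left 2 (Cdc6 and Gins2) and 12.9% of all names. Cdc6 alone passed without shExosc8 array 2, shControl array 2 or shControl array 3. In each of those fits, too, a smaller share of all names passed than the 29.8% with all 6 arrays. With all 6 arrays, 14 of the 33 genes had an unadjusted p under 0.05, against 45.0% of all names. Leaving out an array never changed the sign of any of the 5 called genes.

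**Figure D2:**
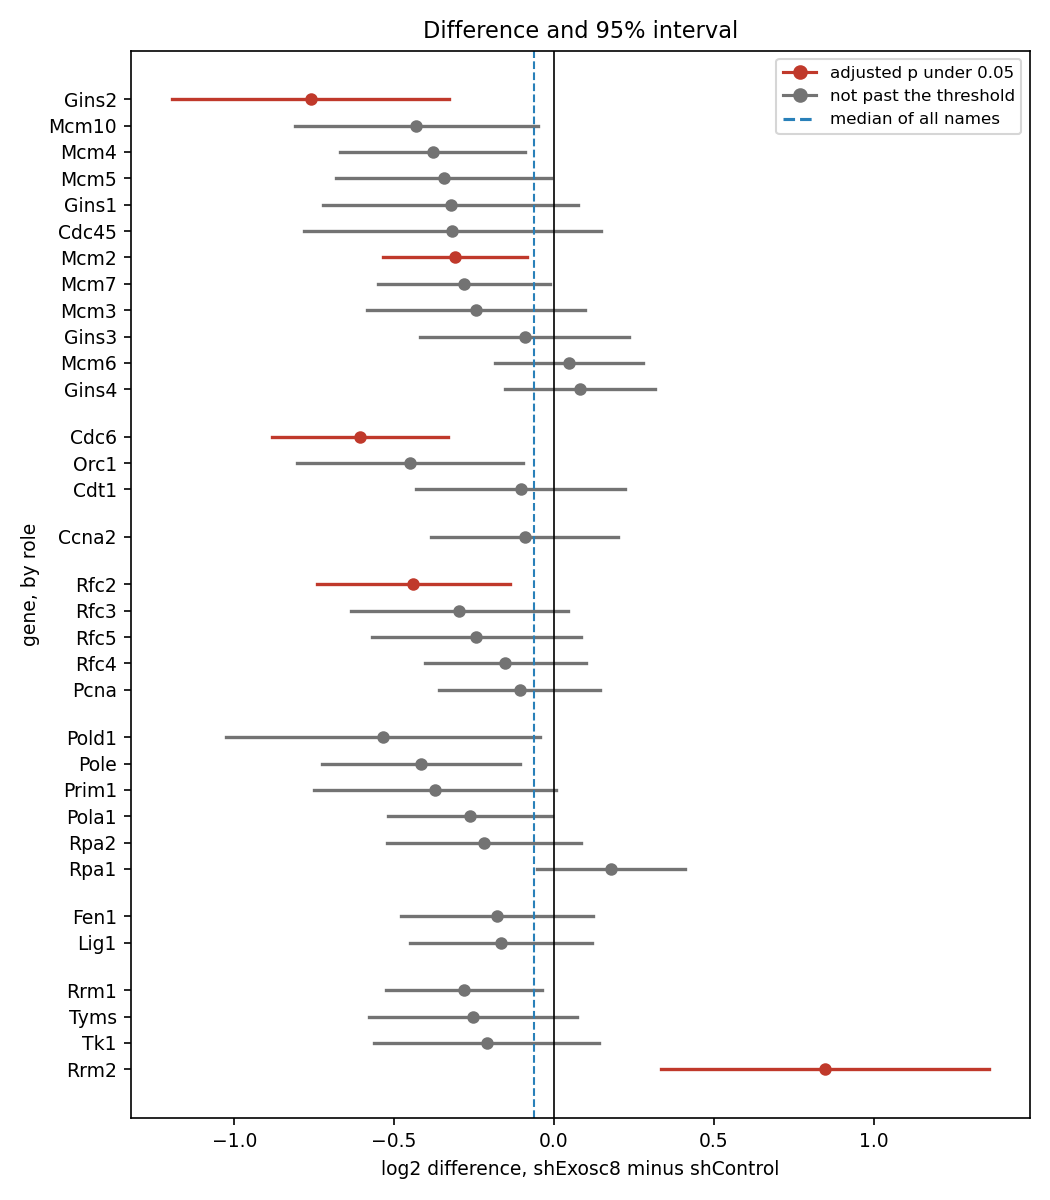
Log2 difference, shExosc8 minus shControl, with its 95% interval for each of the 33 replication genes (x axis), grouped by role down the page, with red points for the 5 genes past an adjusted p of 0.05. Points lie left of 0 for 29 genes, and Rrm2, at 0.85, is the 1 called gene to the right of 0.

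At the licensing step, the fall with the smallest p among the 33 genes was that of Cdc6, the ATPase that helps load the helicase ring onto origins. Its signal was 71.2%, 60.3% and 66.1% of the shControl mean on the shExosc8 arrays and 103.4%, 104.8% and 92.3% on the shControl arrays. Every shExosc8 array lay below every shControl array, with no overlap. The log2 difference was -0.61 ± 0.11 (SE, n = 3 each, limma adjusted p = 0.0128), which is 65.7% of the shControl level with a 95% interval of 54.3% to 79.5%. Cdc6 was called in 5 of the 6 fits that each left out 1 array, and had an adjusted p of 0.0577 in the fit without shControl array 1. The probe used lies at chr11:98782986-98783045 of mm9 on the plus strand and begins at base 2337 of the transcript. A second Cdc6 probe, which begins at base 4520, gave 89.5%, 104.0% and 67.4% on the shExosc8 arrays against 103.5%, 107.1% and 90.3% on the shControl arrays. There the groups overlapped, and the difference was -0.22 ± 0.18 (adjusted p = 0.374 over 24836 probes tested one by one, of which 27.8% were called). On the same scale the first probe had an adjusted p of 0.0142, so the probes of Cdc6 shared a sign but not a call.

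Orc1, the largest subunit of the origin recognition complex, read 70.1%, 68.2% and 81.9% on the shExosc8 arrays and 102.8%, 114.0% and 85.4% on the shControl arrays. The groups did not overlap, but the difference of -0.45 ± 0.15 did not pass (adjusted p = 0.0609), and shControl array 3 was near the third shExosc8 array. Cdt1, which works with Cdc6 to load the ring, read 94.2%, 107% and 80.0% in shExosc8 and 103%, 104% and 93.8% in shControl. Its arrays overlapped and its difference was -0.10 ± 0.14 (adjusted p = 0.576). Within single arrays, the Cdc6 signal relative to Cdt1, set to 0 at the shControl mean, was -0.40, -0.83 and -0.28 on the log2 scale in shExosc8, against 0.01, 0.02 and -0.02 in shControl. This pair and those below were chosen after their values had been seen, so the mean shift of -0.50 carries no test. Ccna2, the cyclin that drives S phase with Cdk2, had a difference of -0.09 ± 0.12 (adjusted p = 0.581), with overlapping groups.

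Among the 12 helicase genes, Gins2 and Mcm2 fell (16.7%, near the 13.8% of all names), none rose, and 10 were lower in mean (83.3%, against 55.1% of all names), with a median log2 difference of -0.31. Gins2 encodes 1 of the GINS subunits that join Mcm2 to Mcm7 and Cdc45 in the active helicase. Its signal was 70.2%, 63.8% and 45.9% of the shControl mean on the shExosc8 arrays, against 107.5%, 101.0% and 92.1% on the shControl arrays. No shExosc8 array reached the lowest control, and the third lay lowest of all. The log2 difference was -0.76 ± 0.18 (SE, n = 3 each, limma adjusted p = 0.0248), which is 59.0% of the shControl level with an interval of 43.7% to 79.7%. Its probe lies at chr8:123112627-123112686 of mm9 on the minus strand. The call was lost in 4 of the 6 fits without an array, with adjusted p between 0.0566 and 0.0880 in those 4. Without shExosc8 array 3 the difference was -0.58 and the call held (adjusted p = 0.0128).

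Mcm2, a subunit of the helicase ring, read 80.3%, 80.7% and 81.0% on the shExosc8 arrays and 105.1%, 98.3% and 96.8% on the shControl arrays. The 3 shExosc8 arrays were nearly equal and lay below all 3 controls. The difference was -0.31 ± 0.09 (limma adjusted p = 0.0492), or 80.7% of the shControl level with an interval of 69.0% to 94.3%. Its probe lies at chr6:88833619-88833678 of mm9 on the minus strand. The call sat at the edge of the threshold: it was lost in 5 of the 6 fits that left out an array (adjusted p of 0.0962 to 0.168 in those) and held without shExosc8 array 3, and the adjusted p was 0.0558 when probes were tested one by one. Mcm4, another subunit of the ring, read 78.8%, 79.8% and 72.3% in shExosc8 and 108.5%, 104.3% and 88.4% in shControl, again with no overlap. Its larger difference of -0.38 ± 0.12 had an adjusted p of 0.0558 and stayed outside the threshold.

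The subunits of the ring did not all have the same values. Mcm5 and Mcm7 were lower on every shExosc8 array than on any control, with differences of -0.35 ± 0.14 (adjusted p = 0.103) and -0.28 ± 0.11 (adjusted p = 0.0982), and Mcm3 overlapped at -0.24 ± 0.14 (adjusted p = 0.221). Mcm6 read 105%, 105% and 99.1% in shExosc8 and 104%, 101% and 95.3% in shControl, a difference of 0.05 ± 0.10 with overlapping groups (adjusted p = 0.731). Its sign depended on the scaling and turned negative in 6 of 18 other settings, without a call. Relative to Mcm6 on the same array, Mcm4 was at -0.42, -0.40 and -0.46 on the log2 scale in shExosc8 and at 0.07, 0.04 and -0.11 in shControl. The mean shift was -0.43, a difference within arrays that scaling an array as a whole leaves as it is.

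Helicase activators showed the same mixture. Mcm10, which helps start the assembled helicase, and Cdc45 differed by -0.43 ± 0.16 (adjusted p = 0.0816) and -0.32 ± 0.19 (adjusted p = 0.238), with Mcm10 lower on all 3 shExosc8 arrays and Cdc45 at 103% on the third. Gins1 read 89.5%, 87.8% and 65.0% in shExosc8 and 107%, 106% and 88.2% in shControl, a difference of -0.32 ± 0.16 (adjusted p = 0.174). For Gins3 the difference was -0.09 ± 0.13 (adjusted p = 0.622), and for Gins4 it was 0.08 ± 0.10 (adjusted p = 0.547), both with overlapping groups and with signs that turned under some other settings. Gins2 relative to Gins4, another subunit of the same complex, was -0.63, -0.64 and -1.25 on the log2 scale in shExosc8 and 0.09, -0.03 and -0.07 in shControl, a mean shift of -0.84.

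**Figure D3:**
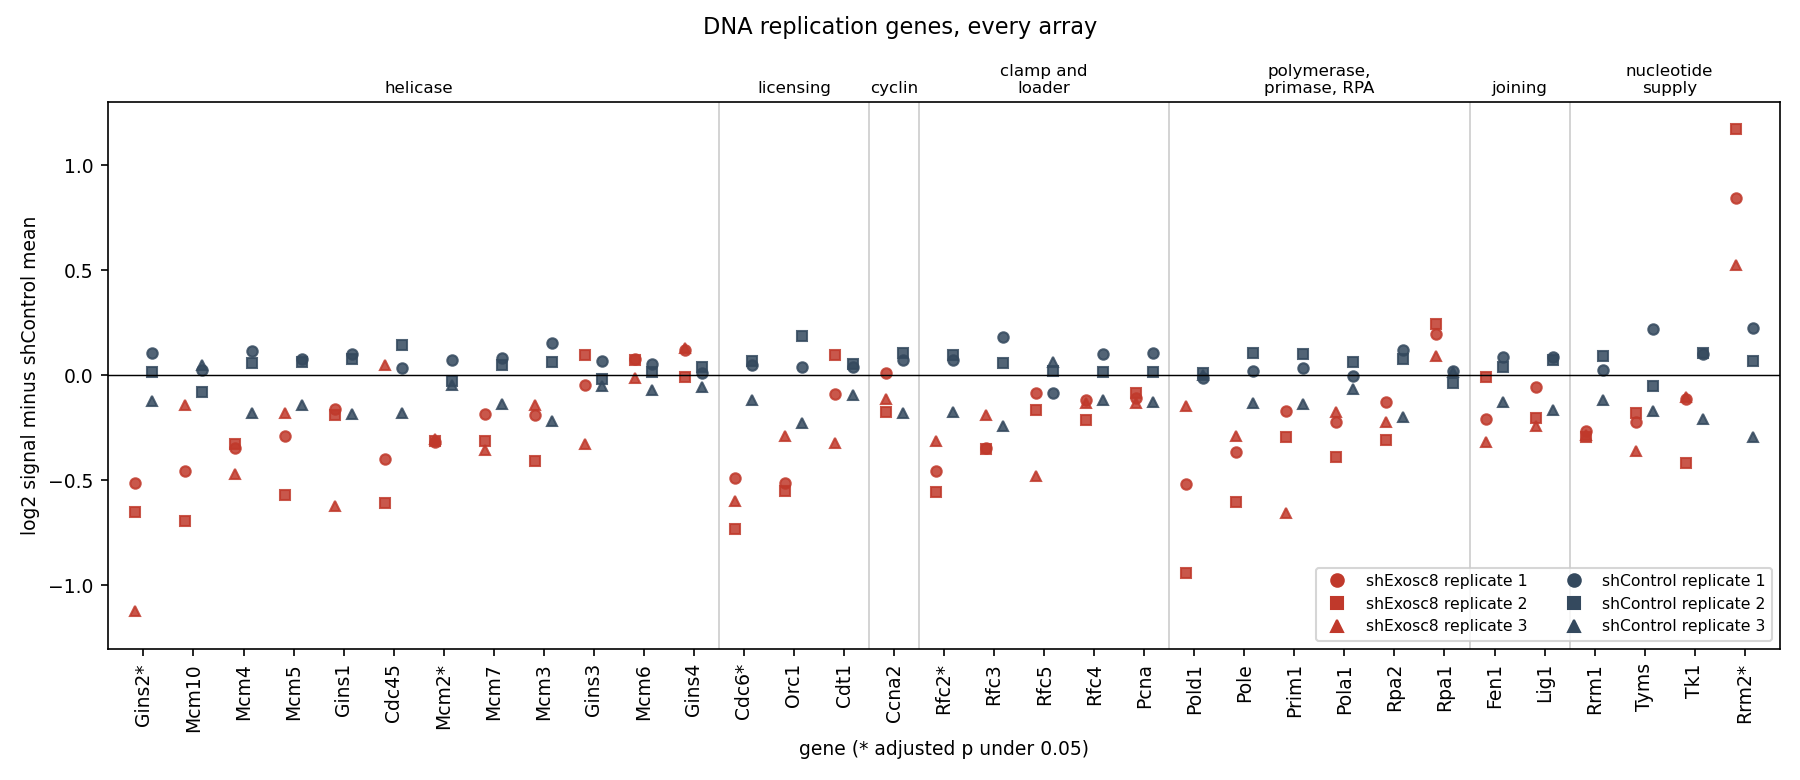
Scaled signal of each of the 33 replication genes on each of the 6 arrays, as log2 relative to the shControl mean, with shExosc8 arrays left of shControl arrays and genes grouped by role. Rrm2 is above the control mean on all 3 shExosc8 arrays, Gins2 is lowest on the third, and shControl array 3 is below the control mean for 29 genes.

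Of the 5 clamp and clamp loader genes, Rfc2 fell (20.0%, against 13.8% of all names) and the other 4 did not pass, and all 5 were lower in mean (55.1% of all names were) with a median of -0.24. Rfc2, a small subunit of the loader that opens PCNA and closes it around DNA, read 73.1%, 68.1% and 80.5% of the shControl mean on the shExosc8 arrays and 105.2%, 107.0% and 88.8% on the shControl arrays. The groups did not overlap, and shExosc8 array 3 lay nearest to the controls. The difference was -0.44 ± 0.12 (SE, n = 3 each, limma adjusted p = 0.0423), or 73.7% of the shControl level with an interval of 59.8% to 90.8%. Its probe lies at chr5:135073809-135073868 of mm9 on the plus strand. The call was lost in 5 of the 6 fits without an array, all but the fit without shExosc8 array 3, with adjusted p of 0.0501 to 0.136 in those 5.

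Rfc3, a second small subunit, read 78.6%, 78.4% and 87.6% in shExosc8 and 113.6%, 104.1% and 84.5% in shControl. Its groups overlapped through shControl array 3, and the difference was -0.30 ± 0.14 (adjusted p = 0.150). Rfc5 read 94.4%, 89.3% and 71.7% in shExosc8 and 94.3%, 101.4% and 104.6% in shControl, a difference of -0.24 ± 0.14 (adjusted p = 0.207) with the first shExosc8 array at the level of the lowest control. Rfc4 was lower on every shExosc8 array, by -0.15 ± 0.10 (adjusted p = 0.291). On a second Rfc4 probe the arrays read 94.5%, 104% and 43.5% in shExosc8 and 108%, 108% and 86.1% in shControl, a difference of -0.41 ± 0.34 (adjusted p = 0.383) with the third shExosc8 array alone far below the controls. Pcna, the clamp itself and a common marker of cycling cells, read 92.7%, 94.4% and 91.4% in shExosc8 and 108%, 101% and 91.7% in shControl. Its difference was -0.11 ± 0.10 (adjusted p = 0.451), with an interval of 78.0% to 110% of the shControl level.

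None of the 6 polymerase, primase and single-strand binding genes passed the limma threshold, while 3 of them, Pole, Pold1 and Pola1, had an unadjusted p under 0.05, a share close to the 45.0% of all names. Lower on every shExosc8 array were 4 of the 6, against 28.4% of all names. Their median was -0.32. Pole, the catalytic subunit of the leading-strand polymerase epsilon, read 77.8%, 66.0% and 82.0% of the shControl mean in shExosc8 and 101.5%, 107.8% and 91.4% in shControl. The groups did not overlap and the difference of -0.42 ± 0.13 had an adjusted p of 0.0526, the closest to the threshold of all members outside it. A second Pole probe had a difference of -0.27 ± 0.11 (adjusted p = 0.118 among probes). Pold1, the catalytic subunit of the lagging-strand polymerase delta, read 69.9%, 52.1% and 90.4% in shExosc8 and 99.0%, 101.0% and 100.0% in shControl. All 3 shExosc8 arrays were lower but spread widely, and the difference was -0.53 ± 0.20 (adjusted p = 0.0898). Without shExosc8 array 3 the Pold1 difference passed. Pola1, the catalytic subunit of polymerase alpha, read 85.6%, 76.4% and 88.6% in shExosc8 and 99.9%, 104.6% and 95.7% in shControl. Its groups did not overlap, and its difference was -0.26 ± 0.11 (adjusted p = 0.105).

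Prim1, the catalytic primase subunit that makes the RNA primer, read 89.0%, 81.6% and 63.4% in shExosc8 and 102%, 107% and 90.9% in shControl, a difference of -0.37 ± 0.16 (adjusted p = 0.116). Rpa1 and Rpa2 encode subunits of the same single-strand binding complex and lay on opposite sides of 0. Rpa1 read 114.7%, 118.3% and 106.8% in shExosc8 and 101.6%, 97.4% and 101.0% in shControl, higher on every shExosc8 array by 0.18 ± 0.10 (adjusted p = 0.193), and its sign turned in 1 of 18 other settings. A second Rpa1 probe read 112.6%, 102.1% and 122.9% in shExosc8 and 104.9%, 92.7% and 102.9% in shControl. There the groups overlapped, with a difference of 0.17 ± 0.12 (limma adjusted p = 0.315 among probes). Rpa2 overlapped at -0.22 ± 0.13 (adjusted p = 0.219). Lig1 and Fen1, the ligase and the flap nuclease that join Okazaki fragments, overlapped between groups with differences of -0.17 ± 0.12 (adjusted p = 0.310) and -0.18 ± 0.12 (adjusted p = 0.302).

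The nucleotide supply genes held the 1 call upward, Rrm2, and the other 3 were lower in mean. Rrm2 encodes the small subunit of ribonucleotide reductase, which is made mainly in S phase and limits the enzyme's activity. Its signal was 179.6%, 225.5% and 143.8% of the shControl mean on the shExosc8 arrays, against 116.8%, 105.0% and 81.5% on the shControl arrays. All shExosc8 arrays exceeded all shControl arrays, and the second was highest. The log2 difference was 0.85 ± 0.21 (SE, n = 3 each, limma adjusted p = 0.0298), a 1.80-fold higher level with an interval of 126% to 257% of shControl. The probe lies at chr12:25398824-25398883 of mm9 on the plus strand. Rrm2 kept its sign in all 18 other settings (0.35 to 1.04), but the call held in only 1 of the 6 fits that left out an array, the fit without shExosc8 array 3, with adjusted p of 0.0571 to 0.0919 in the other 5.

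Rrm1, the large subunit of the same enzyme, went the other way in mean. It read 83.1%, 81.6% and 82.2% in shExosc8 and 101.8%, 106.5% and 92.3% in shControl. The groups did not overlap and the shExosc8 arrays were nearly equal, but the difference of -0.28 ± 0.10 did not pass (adjusted p = 0.0787). Rrm2 relative to Rrm1 on the same array was 1.11, 1.47 and 0.81 on the log2 scale in shExosc8, against 0.20, -0.02 and -0.18 in shControl, a mean shift of 1.13. Tyms, the thymidylate synthase that makes dTMP, read 85.8%, 88.5% and 77.9% in shExosc8 and 116.4%, 96.5% and 89.0% in shControl. Its groups met almost without a gap, with a difference of -0.25 ± 0.13 (adjusted p = 0.189). Tk1, the thymidine kinase of the salvage route, overlapped at -0.21 ± 0.15 (adjusted p = 0.296).

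Seen array by array, the median of the 33 genes was -0.19, -0.31 and -0.24 on the log2 scale on the shExosc8 arrays, against 0.07, 0.06 and -0.13 on the shControl arrays. All 3 shExosc8 medians lay below all 3 control medians, but shControl array 3 lay nearer to the first shExosc8 array than to the other controls and was below the control mean for 29 of the 33 genes. The median of all names ran from -0.07 to -0.01 on the shExosc8 arrays and from -0.02 to 0.02 on the shControl arrays. On the 3 shExosc8 arrays, 19, 24 and 24 of the genes lay below every control (57.6%, 72.7% and 72.7%), against 45.0%, 42.3% and 43.3% of all names. Above every control lay 4, 5 and 3 of the genes (12.1%, 15.2% and 9.09%), against 35.9%, 41.1% and 31.3% of all names. Markers of erythroid maturation differed between the controls as well. Alas2, the erythroid enzyme of heme synthesis, read 353%, 357% and 255% in shExosc8 and 110%, 127% and 71.7% in shControl, and Slc4a1, the red cell anion exchanger, read 234%, 253% and 187% in shExosc8 and 111%, 136% and 66.4% in shControl, so shControl array 3 was lowest for both. Their part in the replication values was not tested.

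**Figure D4:**
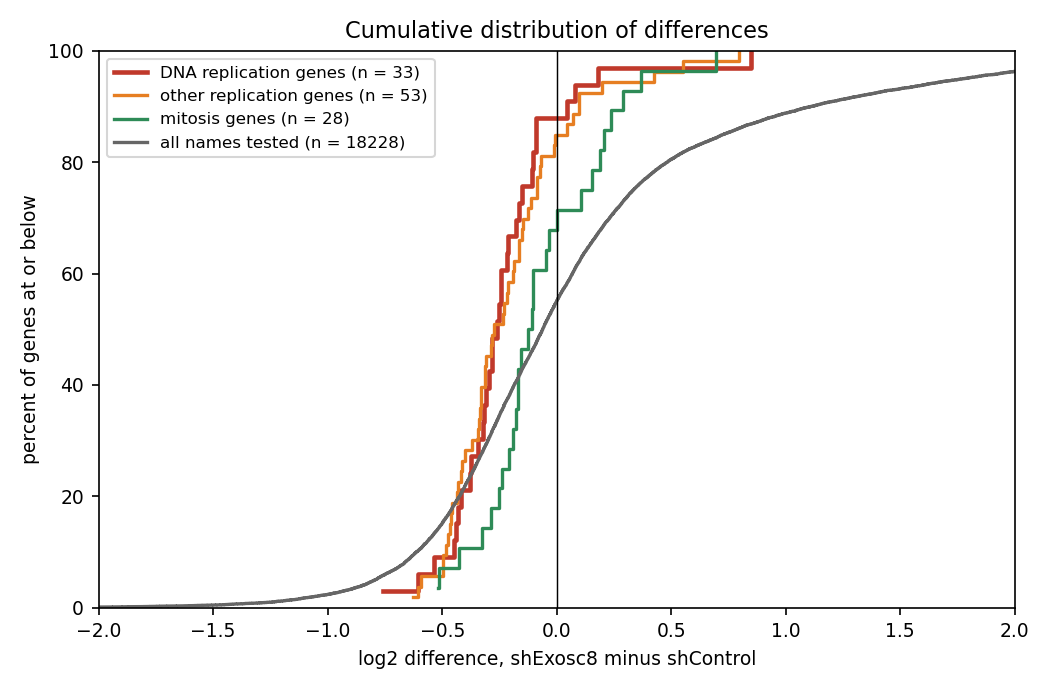
Percent of genes (y axis) at or below a given log2 difference, shExosc8 minus shControl (x axis, shown from -2 to 2), for the 33 replication genes, the 53 other replication genes, the 28 mitosis genes and all 18228 names. The 33 genes run from -0.76 to 0.85 around a median of -0.26, whereas all names run from -4.81 to 6.39 around -0.06. Top2a is counted among both the other replication genes and the mitosis genes.

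A further list of 54 replication genes gave a similar picture. Of the 53 tested, 9 changed (17.0%, against 29.8% of all names), 8 lower and 1 higher, and 45 were lower in mean (84.9%, against 55.1% of all names) with a median of -0.27. Rrm2b, the p53-induced small subunit, was well above background on 0 of 3 shExosc8 and 2 of 3 shControl arrays and was not tested. The polymerase, primase and single-strand binding subunits on that list had 4 of 9 lower (44.4%, against 13.8% of all names). This was the highest share among the groups of the list, the others having 0% to 14.3% lower. The 4 were Pole2 (-0.43 ± 0.10, limma adjusted p = 0.0210), Rpa3 (-0.46 ± 0.11, 0.0274), Prim2 (-0.48 ± 0.12, 0.0282) and Pola2 (-0.63 ± 0.17, 0.0364), partners of Pole, Rpa1, Prim1 and Pola1. Mcm8, a helicase that works in recombination, had the smallest p, with 63.0%, 68.7% and 67.4% of the shControl mean in shExosc8 and 98.5%, 97.4% and 104% in shControl (-0.59 ± 0.10, adjusted p = 0.00814). Orc5, of the origin recognition complex, differed by -0.50 ± 0.12 (adjusted p = 0.0264). Top1, the topoisomerase that relieves supercoils ahead of the fork and also acts in transcription, was the 1 that rose, with 168%, 241% and 129% in shExosc8 against 108%, 103% and 89.4% in shControl (0.80 ± 0.23, adjusted p = 0.0469). The list's count was 20 without shExosc8 array 3, where 45.7% of all names passed, and 1 to 3 without any other single array, where 12.9% to 18.0% of all names passed.

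Of the 28 mitosis genes tested from a list of 30, 3 changed (10.7%, against 29.8% of all names), and 20 were lower in mean (71.4%, against 55.1% of all names) with a median of -0.12. Bub1b, a spindle checkpoint kinase, read 74.1%, 69.9% and 65.7% in shExosc8 and 98.8%, 97.5% and 104% in shControl (-0.52 ± 0.10, adjusted p = 0.0134). Hmmr, a spindle protein, also fell (-0.52 ± 0.12, adjusted p = 0.0247), and Incenp, of the chromosomal passenger complex, rose (0.70 ± 0.16, adjusted p = 0.0236). Top2a, not called, was counted both on this list and on the list of further replication genes. Whether replication and mitosis genes differed from each other was not tested. In the same fits, with the same shares of all names, the mitosis count was 7 without shExosc8 array 3 and 0 to 2 without any other single array.

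Replication genes with an E2F word in the printed kind of window had a median difference of -0.27 (12 genes, -0.61 to 0.05), and those with a window but no such word had -0.23 (14 genes, -0.43 to 0.85). The ranges overlapped in part, and Rrm2 alone set the upper end of the second beyond that of Rpa1, at 0.18. Cdc6, with 1 word, and Mcm6, with 3, stood at the lowest and highest ends of the first range.

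In the authors' deposited table, none of the 33 features of these genes had an adjusted p under 0.05, and 5 had an unadjusted p under 0.05. Of its 59305 non-control features, 1980 had an adjusted p under 0.05, so few passed there in general and 0 among 33 says little about these genes. The share of all features with an unadjusted p under 0.05 was not computed, so the 5 stand without a background. The authors' deposited table gave a log2 fold change of -0.61 for Cdc6, -0.86 for Gins2 and 0.76 for Rrm2, and its sign matched the fit here for 32 of the 33 features, with Mcm6 at -0.06 as the exception.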

How the data were processed

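Per the file headers, the deposited intensity of each spot is background-subtracted and detrended output of Agilent Feature Extraction (10.7.3.1), which also wrote flags of 0 or 1, another kind of value, for spots that stand well above background or are outliers. A deposited table repeats these intensities and adds the authors' log2 fold changes and p-values. The submitters' processing notes name limma for it; how the arrays were normalized there is, in the sources used here, not stated, so these values are quoted only as the authors'. Probe positions refer to mm9.

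Control spots (3671 of 62976 features) and outlier spots were removed. The log2 intensity of each array was reduced by its 75th percentile over the 21615 probes well above background on all 6 arrays. A probe was kept if every array of 1 group or the other showed it well above background (24836 probes), and the probe with the highest mean stood for each of 18228 names. Names of 27495 probes came from the RefSeq table (GRCm38.p6) by accession and of 3549 by symbol, and 24616 kept the file's name. The 33 members had 41 probes, 39 of which passed the filter, 6 members had several, and none was saturated. Two-sided tests came from lmFit and eBayes of limma 3.58.1 under R 4.3.3, fitted on all 6 arrays without covariates, with Benjamini-Hochberg adjustment over all names and a threshold of 0.05. An exact permutation test of 3 against 3 arrays cannot give a p under 0.1. The fit was tested on simulated data.

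All 33 members were named by role, with values per array for every member past the threshold and for the 3 of smallest p in the helicase, clamp, polymerase and nucleotide supply groups. Of the further replication and mitosis lists, the 8 of smallest p past the threshold were to be named, but a few genes are not reported here. Other values per array, and the pairs of genes compared within arrays, were chosen after their values were seen. Members and lists were chosen with earlier results of these data known. The alternatives are given in the closing section. Between 25580 and 39936 spots per array were well above background. The highest count was that of shControl array 2, and the next, on shControl array 1, was 29259. Precision is limited by having 3 arrays per group. The arrays shared 1 slide, with each group filling a row of its own, so an effect of the row cannot be told apart from the knockdown.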

Additional observations from a re-analysis of the deposited data

How the results depend on the processing

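Each result was recomputed under 18 other settings, and no called result changed sign. Exosc8 stayed lower in all of them (-1.64 to -1.03) and lost its call only with the slide column as a block (-1.03, adjusted p = 0.124). Over the 33 genes and 18 settings, 485 values kept their sign and side of the threshold, 38 lost the call, 56 gained it, and 15 changed sign without a call. The median over all names moved with the scaling, from -0.06 to -0.21 with the 75th percentile over all probes and to -0.56 without normalization. Relative to that median, the median of the replication genes stayed between -0.30 and -0.17, and 26 to 31 of the 33 lay below it. Some settings could not alter this gap: scaling an array as a whole, the replicate block and the trend in limma's prior. There it was -0.20 with 29 genes below, as in the main fit, so those settings do not test its stability. With the 75th percentile over all probes, calls rose across the array, to 39.2% of all names. In that fit 16 replication genes changed, 15 of them lower, with a median of -0.41, and 21 other replication and 8 mitosis genes changed. Without normalization, 9167 names changed, with 24 replication genes, 24 lower and 0 higher, a median of -0.76, and 36 other replication and 11 mitosis genes. Median centring gave 9 replication genes (8 lower) and 14 others, with 33.3% of all names changed. Normexp with the 75th percentile gave 3 (2 lower), where 26.5% of all names changed. Probes above background on all 6 arrays gave 8 (7 lower), where 33.4% of all names changed. A trend in limma's prior gave 11 (10 lower), 16 others and 5 mitosis genes, where 34.2% of all names changed. Where no share or count of all names stands beside a count in this section, the count lacks that background and cannot be read as particular to these genes. Without a filter on dim probes limma called 1815 names, and 0 replication genes, 0 higher and 0 lower, with 0 others and 0 mitosis genes, where 8, 14 and 3 of the replication, other replication and mitosis genes had an unadjusted p under 0.05. With the slide column as a block limma called 537 names and 0 of each of these lists, where 3, 2 and 0 had an unadjusted p under 0.05. No share of all names was counted for these unadjusted values in either setting, so they stand without a background. The shExosc8 arrays lay in columns 1, 2 and 3 and the shControl arrays in columns 2, 3 and 4. With the column as a block, only columns 2 and 3 therefore compared the groups, and little was left to measure spread. The cause of the fewer calls was not tested in either setting. Without both shExosc8 array 3 and shControl array 2, 15 other replication genes changed. Leaving out each array in turn gave 2347 to 8328 changed names, 0 to 11 replication genes, 0 to 1 higher, 0 to 10 lower, a median of -0.34 to -0.24, 1 to 20 other replication genes and 0 to 7 mitosis genes. The deviations of arrays with the same replicate number correlated at 0.04, 0.22 and 0.30, against -0.26 to 0.17 for arrays of different numbers, and shExosc8 array 1 correlated better with shControl array 2 than with its own number. Pairing by number was therefore not established. With the replicate number as a block, 3 replication genes changed (2 lower), without Mcm2 and Rfc2, among 5633 names. All 33 genes were well above background on all 6 arrays.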
